A study of Homo sapiens with 3 samples.

Results

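The set described here is 10 human genes of haem breakdown, haem synthesis and iron handling: HMOX1, HMOX2, BLVRA, BLVRB, FTH1, FTL, TFRC, SLC40A1, FECH and BACH1. Members were found by gene symbol among the probe sets to which the platform annotation gives 1 gene. By that rule 9 of the 10 genes were present, with 24 probe sets, out of 19775 genes on the array. No probe set named for FTH1, the ferritin heavy chain, was found in the annotation used here, so that gene has no value below. RNA came from NCI-H1650, an established human lung cancer line, hybridised to Affymetrix arrays of 54675 probe sets. The groups were cells given colossolactone H, a triterpenoid of the fungus Ganoderma colossum, at 40 μM for 12 h, cells given the same dose for 24 h, and control cells. For each there was 1 array, made from 6 μg of total RNA. In each group the cells were seeded at 1000000 in a 10 cm dish and grown in medium with 10% serum. Neither a vehicle nor a collection time for the control is given in the labels. With 1 array per group no test, standard error or p-value can be had, every difference describes these 3 arrays, and their number limits its precision.

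Haem oxygenases cut the haem ring and release iron, carbon monoxide and biliverdin. Biliverdin reductases turn biliverdin into bilirubin, and the freed iron is bound in ferritin shells or exported from the cell by ferroportin. HMOX1 is the inducible haem oxygenase of oxidative and electrophilic stress. In many cell types the repressor BACH1, which binds haem, holds it low, and the activator NRF2 raises it.

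Values are the linear MAS5 signal of a probe set, a group of short probes that mostly lie near the 3′ end of a transcript. A gene is represented by its brightest single-gene probe set. A signal at or below the floor of 61.4, the 50th percentile of all values, was set to that floor. A gene counted as measured if any of the arrays read it above the floor, which held for 12351 genes, the 9 members among them. Differences from the control are on the log2 scale, with the treated signal divided by that of the control, and a fold is called one where it is used.

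HMOX1 was the member that differed most from the control, 3.19-fold higher at 12 h and 2.42-fold higher at 24 h. Its signal was 3656 at 12 h and 2768 at 24 h, against 1146 in the control. Both treated arrays lay above the control array, and the 24 h array lay between the other two. The differences were 1.67 at 12 h, the 2nd highest of 12351 measured genes, and 1.27 at 24 h, the 23rd highest. Ranks and shares of all measured genes hold for the floor of 61.4, since the number of genes past 2-fold moved with the floor. HMOX1 was the 1 member of 9 that was 2-fold higher at 12 h, where 0.445% of all measured genes were, and again the 1 member of 9 at 24 h, where 0.591% of all measured genes were. The gene has 1 probe set on the array, so no second probe set bears on these values.

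HMOX2, the constitutive haem oxygenase, went the other way. Its brightest probe set read 812 at 12 h and 917 at 24 h, against 1215 in the control, so both treated arrays were lower. The differences were -0.58 at 12 h and -0.41 at 24 h, where the signal was 1.32-fold lower. Its second probe set, which is specific to the transcript by its suffix, read 195 at 12 h and 227 at 24 h, against 238 in the control, and differed by -0.28 and -0.07. Both probe sets thus lay below the control at both times, with the larger distance at 12 h. No member was 2-fold lower in either comparison with the control, where 0.437% of all measured genes were at 12 h and 0.64% at 24 h.

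**Figure D1:**
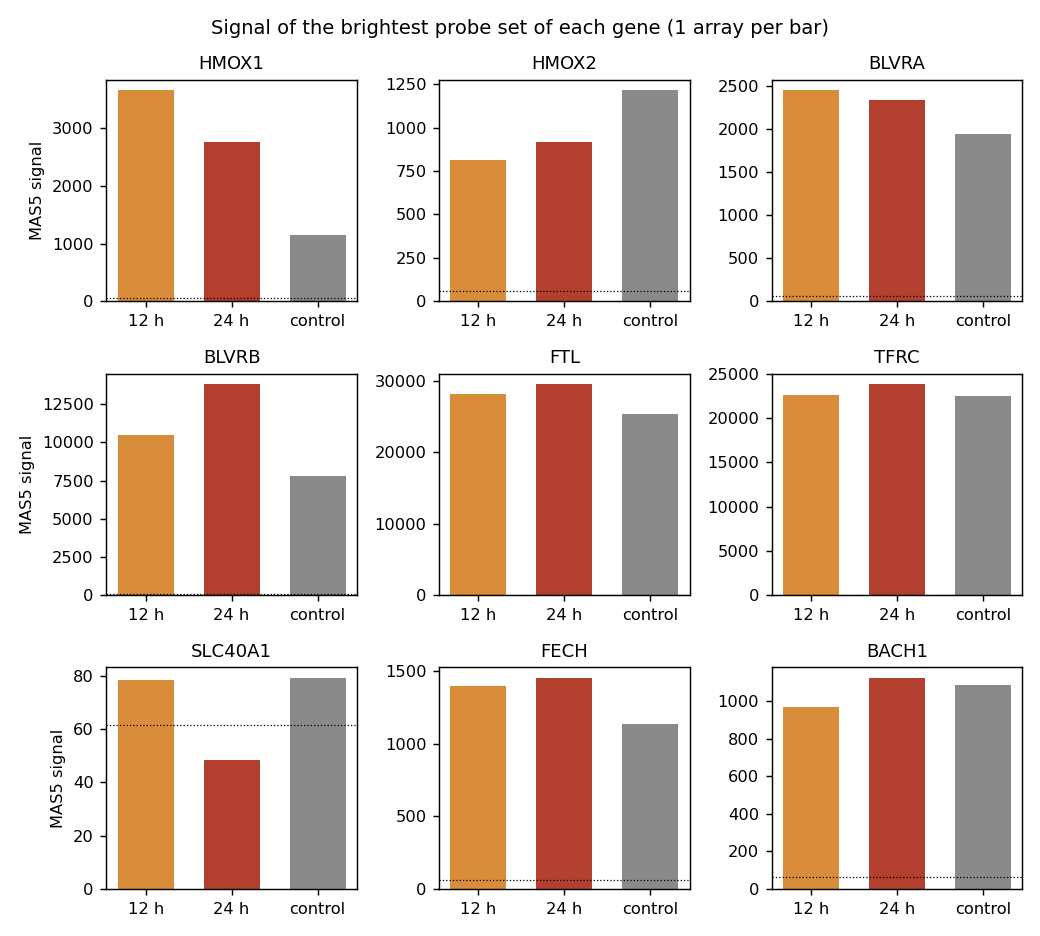
MAS5 signal (linear axis from 0) of the brightest probe set of the 9 measured genes on the 12 h, 24 h and control arrays, with 1 array per bar, no error bars and a dotted line at the floor of 61.4. HMOX1 stands at 3656 and 2768 on the treated arrays against 1146 in the control, BLVRB is highest at 24 h, HMOX2 is lower on both treated arrays, and SLC40A1 is the 1 gene near the floor.

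Among the biliverdin reductases, BLVRB had the larger difference from the control. BLVRB encodes biliverdin reductase B, which also reduces flavins, and its only probe set read 10508 at 12 h and 13824 at 24 h, against 7778 in the control. The differences were 0.43 at 12 h and 0.83 at 24 h, a 1.35-fold and a 1.78-fold higher signal. At 24 h BLVRB ranked 160th from the highest of 12351 measured genes, and at 12 h it ranked 895th. With HMOX1 it made 2 of 9 members at least 1.5-fold higher at 24 h, where 4.09% of all measured genes were. At 12 h HMOX1 alone passed 1.5-fold, where 3.41% of all measured genes did.

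BLVRA encodes the main reductase of biliverdin in adult tissue. Its brightest probe set read 2445 at 12 h and 2331 at 24 h, against 1941 in the control, which gave 0.33 and 0.26. A second probe set gave 0.08 and 0.28 and the next 0.14 and 0.37. All 3 lay above the control at both times, and by less than 1.5-fold in each case. The other 2 probe sets of BLVRA were below the floor on every array.

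BLVRB was, after HMOX1, the member farthest above the control, so the 250 bases before its annotated start site are shown, from RefSeq (GRCh38.p14, chr19:40465746-40465995, minus strand). Capitals mark the GC box letters GGGCGG or their reverse complement CCGCCC.
BLVRB promoter: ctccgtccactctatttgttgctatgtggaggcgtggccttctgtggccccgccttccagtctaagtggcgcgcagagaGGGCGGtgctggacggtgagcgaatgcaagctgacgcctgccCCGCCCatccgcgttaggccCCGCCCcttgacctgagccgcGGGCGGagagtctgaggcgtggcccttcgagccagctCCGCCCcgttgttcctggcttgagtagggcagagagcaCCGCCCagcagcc

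This window held 6 GC boxes, and 42.6% of 35116 promoter windows of the same length held at least 1. RefSeq windows were found for 8 of the 10 genes, 11 windows in all, and 9 of the 11 held a GC box. Counts per member window ran from 0 to 7, the highest in a window of BACH1. The share of all windows with 6 or more was not computed. HMOX1 and FTH1 had no window, so no motif was sought before their start sites. The core letters of the antioxidant response element to which NRF2 and BACH1 bind with small MAF proteins, TGACNNNGC or GCNNNGTCA, occurred in 1 of the 11 windows, that of FECH, and in 10.9% of all windows. The AP-1 core TGANTCA, which reads the same on both strands and can overlap a longer element of that kind, occurred in 1 of the 11, a window of BACH1, and in 6.57% of all windows. A match describes the letters only, and a window without one says nothing of letters outside its 250 bases. The lines below show both matches in capitals, each read on the strand of its gene.
FECH, chr18:57586721-57586750, minus strand: ccgggagggcGCGAGGTCAgggggctgggg
BACH1, chr21:29298864-29298891, plus strand: gcggaaggagTGAGTCAcctgaccgctg

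FECH, ferrochelatase, inserts iron into protoporphyrin in the last step of haem synthesis. Its brightest probe set read 1394 at 12 h and 1453 at 24 h, against 1137 in the control, and so was higher on both treated arrays. The differences were 0.29 and 0.35. The transcript-specific probe set read 311 at 12 h and 397 at 24 h, against 320 in the control, and gave -0.04 and 0.31. The 2 probe sets went the same way at 24 h and opposite ways at 12 h, and the remaining one was below the floor on every array.

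FTL, the ferritin light chain, was read by a pair of probe sets whose suffix marks possible cross-hybridisation to other transcripts. The brighter one read 28165 at 12 h and 29568 at 24 h, against 25328 in the control, which gave 0.15 and 0.22. The other read 19886 at 12 h and 21383 at 24 h, against 16129 in the control, which gave 0.30 and 0.41. Both were higher on both treated arrays, by less than 1.5-fold. The highest signal of any probe set on the 3 arrays was 34145, so FTL was read near the top of the range, and whether differences are compressed there was not tested. A probe set annotated to FTH1P5, a pseudogene of the missing ferritin heavy chain, read 27481 at 12 h and 28666 at 24 h, against 27606 in the control, and was picked for mention after its values were seen. Its differences were -0.01 and 0.05, and the annotation does not assign this signal to FTH1.

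TFRC, the transferrin receptor that carries iron into the cell, had brightest signals of 22643 at 12 h and 23862 at 24 h, against 22505 in the control. These differ by 0.01 and 0.08, smaller than the difference of most measured genes, since 96.0% lay at least as far from 0 at 12 h and 75.3% at 24 h. A second bright probe set gave -0.10 and 0.07. The remaining one above the floor, much dimmer, read 115 at 12 h and 112 at 24 h, against 182 in the control, and gave -0.66 and -0.70. The probe sets of TFRC therefore disagreed, with the 2 bright ones near 0 and the dim one lower, and 2 more were below the floor throughout. By the brightest probe set 99.6% of measured genes were dimmer than TFRC on each array. Whether differences are compressed at such signals was not tested.

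SLC40A1, ferroportin, is the exporter of iron from cells. Its brighter probe set read 78.5 at 12 h and 48.5 at 24 h, against 79.2 in the control, values close to the floor. At 12 h the difference was -0.01. At 24 h the signal was below the floor, so it was at least 1.29-fold lower than in the control. The second probe set read 46.5 at 12 h and 50.4 at 24 h, against 48.5 in the control, below the floor on all 3 arrays, so ferroportin signal was at or near the floor on every array.

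BACH1 differed little. Its brightest probe set read 970 at 12 h and 1123 at 24 h, against 1083 in the control, with differences of -0.16 and 0.05. The 12 h array was the lowest and the 24 h array the highest of the 3. A second probe set was above the floor only in the control, at 68.9, and was thus at least 1.12-fold lower on both treated arrays. A further 3 probe sets that the annotation shares between BACH1 and other genes were below the floor on all arrays, with signals from 0.2 to 35.8.

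**Figure D2:**
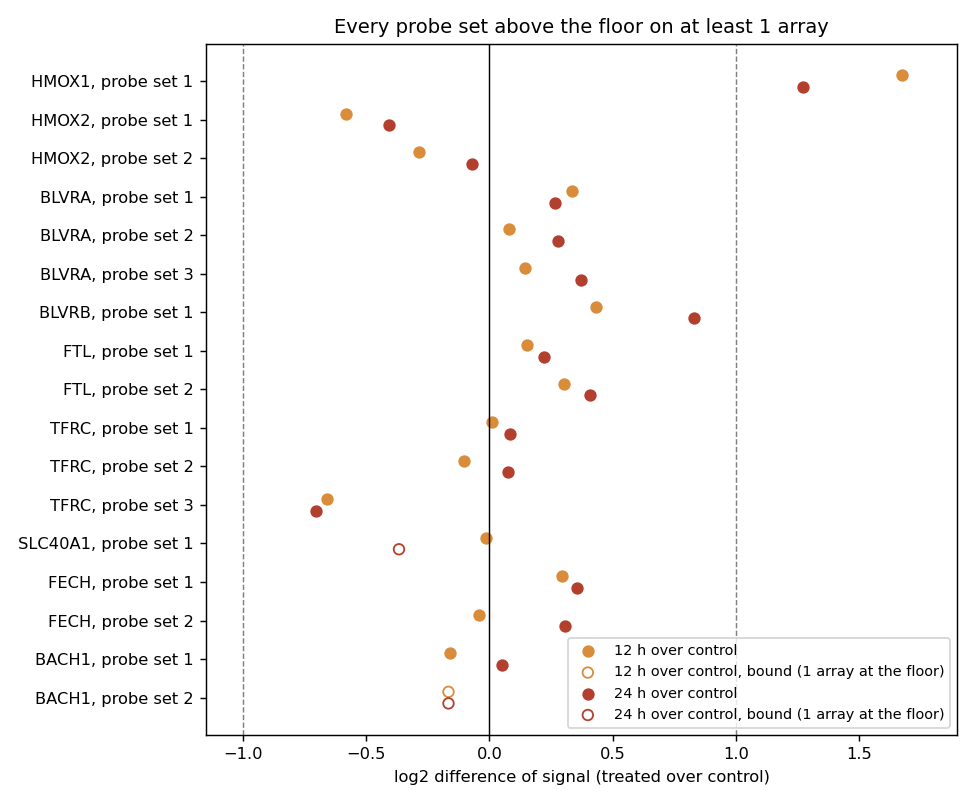
Log2 difference from the control at 12 h and 24 h for the 17 member probe sets above the floor on at least 1 array, numbered from the brightest within each gene; open circles are bounds where 1 array lay at the floor, and dashed lines mark 2-fold. HMOX1 is the 1 probe set past 2-fold, at 1.67 and 1.27, both HMOX2 probe sets lie left of 0, and TFRC probe set 3 lies apart from the other TFRC probe sets.

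Across the 17 probe sets above the floor on at least 1 array, 9 were higher and 8 lower at 12 h, and 12 were higher and 5 lower at 24 h. These counts include 1 bound at 12 h and 2 at 24 h, and probe sets of the same gene count separately. Of 6 genes with several such probe sets, 4 had all of them on one side of the control at 12 h and 4 at 24 h. Taken as genes, 6 of 9 members were higher and 3 lower at 12 h, with a median of 0.15, while the median of all measured genes was 0.0014 and 50.2% of them were higher. At 24 h 7 members were higher and 2 lower, with a median of 0.22, beside a median of 0 over all measured genes, of which 48.8% were higher. The comparisons share the control array, so the values at both times are not independent of each other.

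Between the 2 times HMOX1 and BLVRB ran opposite ways. HMOX1 was lower at 24 h than at 12 h, at 2768 against 3656, a difference of -0.40 for 24 h over 12 h that ranked 676th from the lowest of 12351 genes. BLVRB was higher at 24 h, at 13824 against 10508, a difference of 0.40 that ranked 557th from the highest. BACH1 differed by 0.21, HMOX2 by 0.18, TFRC by 0.08, FTL by 0.07, FECH by 0.06 and BLVRA by -0.07. SLC40A1, below the floor at 24 h, was at least 1.28-fold lower than at 12 h. Over all measured genes the median size of the difference between the treated arrays was 0.12, and of the members it was 0.18. No member was 2-fold higher or lower at 24 h than at 12 h, where 0.324% of all measured genes were.

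**Figure D3:**
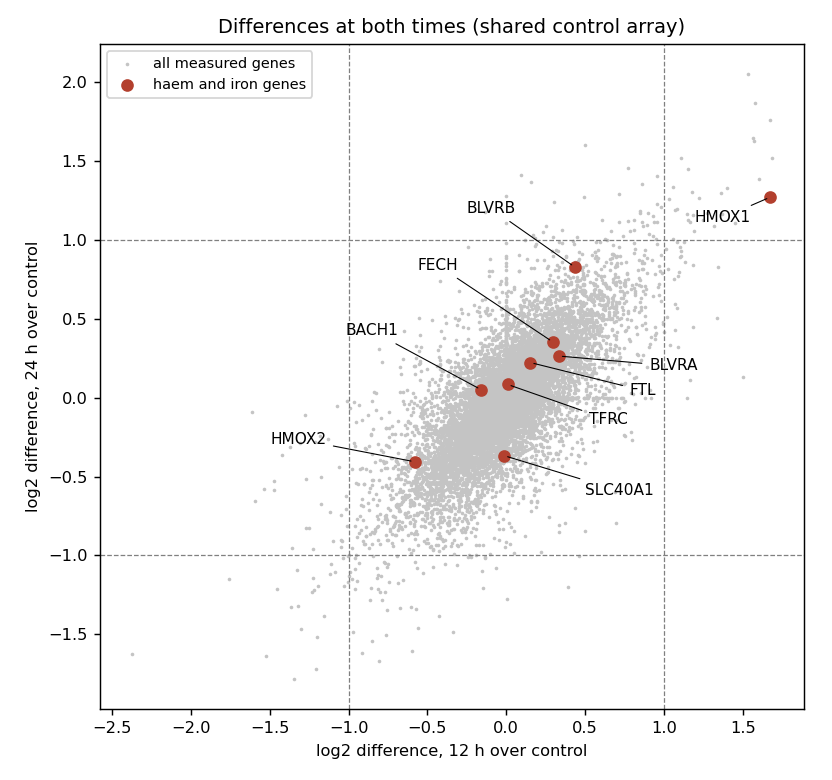
Log2 difference from the control at 12 h (horizontal) and 24 h (vertical) for all 12351 measured genes (grey) and the 9 measured members (red, labelled), with dashed lines at 2-fold. HMOX1 lies at the upper right edge at 1.67 and 1.27, BLVRB lies at 0.43 and 0.83 and HMOX2 at -0.58 and -0.41; the axes share the control array.

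The genes with the pattern closest to HMOX1 were sought by Euclidean distance over the pair of differences from the control, among 7569 other genes above the floor on all 3 arrays and backed by at least 2 probe sets. SLFN5 was closest at 0.13, with differences of 1.60 and 1.39, followed by CBS at 0.39, LINC02806 at 0.40, PXK at 0.45 and KLHDC7B at 0.45. For 24 h over 12 h, where HMOX1 was at -0.40, SLFN5 was at -0.22, LINC02806 at -0.23 and PXK at -0.12. CBS and KLHDC7B, by their brightest probe sets, went the other way, at 0.08 and 0.05. In this comparison the probe sets of SLFN5 ranged from -0.50 to 0.59. Those of PXK ranged from -0.12 to 0.45 and those of KLHDC7B from -0.18 to 0.05. Only CBS (0.002 to 0.20) and LINC02806 (-0.23 to -0.05) kept the same sign in all probe sets above the floor. Likeness over 2 differences that share a control array is a description only. The probe sets of SLFN5 ranged from 0.33 to 1.60 at 12 h and those of CBS from 0.19 to 1.56. Taking the median over probe sets put the 12 h difference of SLFN5 at 0.56, and CBS was at 0.19 at both times with transcript-specific probe sets. LINC02806 was at 0.80 and 0.75 by its transcript-specific probe set.

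The wider machinery of haem and iron was read through 10 lists that hold 78 further genes, of which 62 were measured. At 12 h 38 of the 62 were higher and 24 lower, with a median of 0.07, where 50.2% of all measured genes were higher. At 24 h 40 were higher and 22 lower, again with a median of 0.07, where 48.8% of all measured genes were higher. None was 2-fold higher at either time, where 0.445% of all measured genes were at 12 h and 0.591% at 24 h. STEAP4 was the 1 gene 2-fold lower at both times, where 0.437% and 0.64% of all measured genes were.

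STEAP4, a membrane reductase of iron and copper, was at 407 at 12 h and 417 at 24 h, against 1046 in the control. The differences were -1.36 and -1.33, and 1 of its 2 probe sets passed the floor. The other genes of iron uptake and reduction went both ways, and the list had medians of -0.16 and -0.03. SLC39A8, a transporter of zinc, manganese and iron, was at -0.47 and -0.49, and CYBRD1, an iron-reducing cytochrome, at -0.16 and -0.48. For CYBRD1 a second probe set gave 0.21 and 0.10.

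The haem synthesis list, which includes FECH, had a 12 h median of 0.04 and a 24 h median of 0.21, and by their brightest probe sets 5 of its 7 measured genes were higher at 12 h and 7 of 7 at 24 h, where 50.2% and 48.8% of all measured genes were. At 24 h ALAD and PPOX were each at 0.03, and other probe sets gave -0.37 for UROS, -0.43 for PPOX and -0.11 for ALAD. ALAS1, the first and rate-limiting enzyme outside red cells, read 3078 at 12 h and 3863 at 24 h, against 3150 in the control, and was picked for mention after its values were seen. UROD, which makes coproporphyrinogen, was at 0.22 and 0.32 and CPOX, which follows it in the pathway, at 0.10 and 0.21. None of these reached 1.5-fold.

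In the haem degradation list POR, which feeds electrons to haem oxygenase, was at 0.29 and 0.19, a gene named after its values were seen. Among genes of haem transport and binding, HEBP1, a haem-binding protein, was at 0.44 and 0.44 and ABCB6, a porphyrin transporter, at 0.44 and 0.38. FLVCR2, a haem and choline transporter, was at -0.53 and -0.08. The list had medians of 0.08 and 0.05.

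Of the storage and chaperone genes, NCOA4, the receptor that delivers ferritin to lysosomes, was at -0.03 and -0.08, and PCBP1, a chaperone that hands iron to ferritin, at -0.19 and -0.10. HEPH, CP and HAMP, an oxidase pair of iron export and the hormone that closes ferroportin, were below the floor on all arrays, and were picked for mention after this was seen. ACO1, an iron regulatory protein, was at 0.13 and 0.19 and FBXL5, the ligase subunit that senses iron and marks the other iron regulatory protein for degradation, at 0.18 and 0.20. For FBXL5 a second probe set gave -0.09 and -0.10.

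Genes of mitochondrial iron and iron-sulphur cluster assembly had medians of 0.07 and 0.05 over 15 genes. SLC25A37, mitoferrin 1, read 1720 at 12 h and 1143 at 24 h, against 2065 in the control, a difference of -0.26 and -0.85. Its probe sets above the floor ranged from -0.52 to 0.12 at 12 h and from -0.85 to 0.02 at 24 h. ISCU, the cluster scaffold, was at 0.28 and 0.38 and HSPA9, a chaperone of cluster transfer, at 0.15 and 0.30. In the cytosolic pathway 6 of 8 genes were higher at 12 h and 7 of 8 at 24 h, where 50.2% and 48.8% of all measured genes were. The 24 h count includes NDOR1 at 0.00073 and CIAO1, whose probe sets ranged from -0.42 to 0.17. The genes farthest from the control on average were CIAO3 at 0.26 and 0.45, CIAPIN1 at 0.15 and 0.29 and CIAO2B at 0.15 and 0.21.

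Among the partners and relatives of BACH1, NFE2L1, a related factor that controls proteasome genes, was at 0.34 and 0.62 and MAFG, a small MAF partner, at 0.07 and 0.43. The probe sets of NFE2L1 ranged from 0.23 to 0.34 at 12 h and from 0.30 to 0.62 at 24 h. NFE2L3 was lower, at 207 at 12 h and 205 at 24 h, against 350 in the control, or -0.76 and -0.77. NFE2L2, which encodes NRF2, read 7570 at 12 h and 7041 at 24 h, against 6490 in the control, differences of 0.22 and 0.12. Its probe sets above the floor on at least 1 array ranged from 0 to 0.22 at 12 h and from 0.0023 to 0.12 at 24 h. KEAP1, the inhibitor of NRF2, was at 0.10 and 0.16. NFE2L2 and KEAP1 were named after their values were seen.

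**Figure D4:**
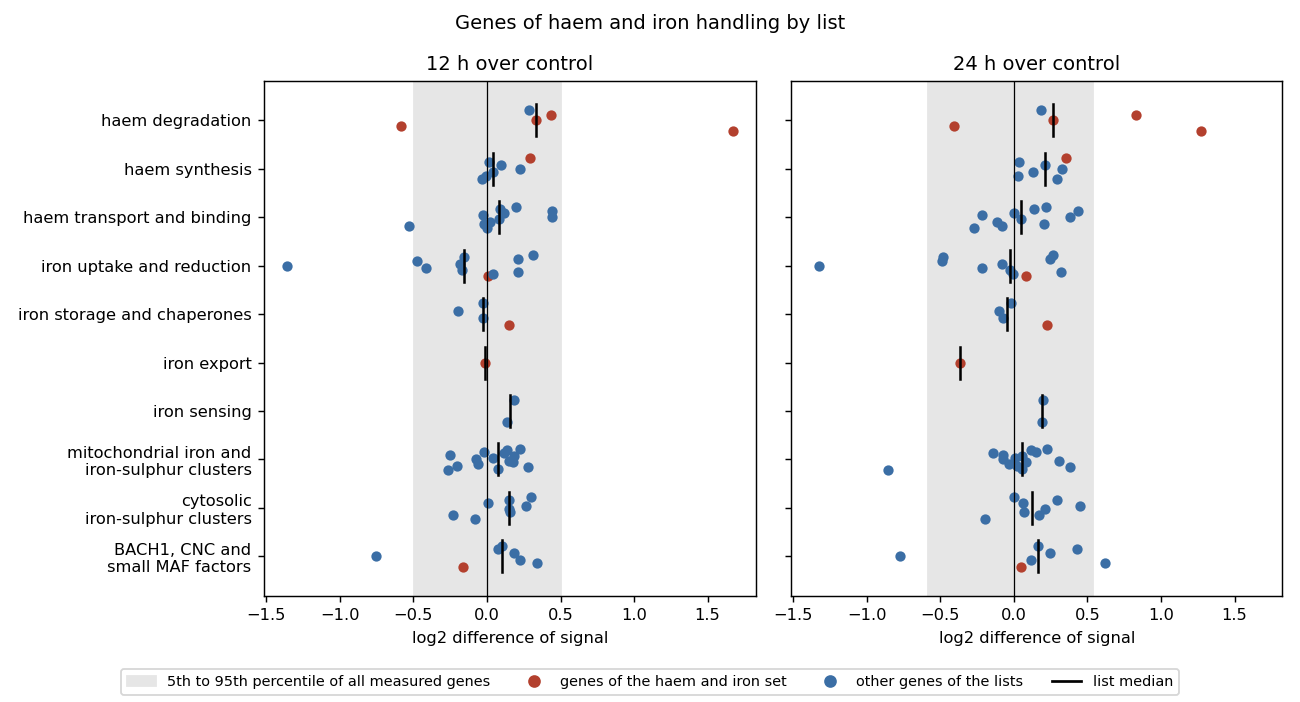
Log2 difference from the control at 12 h (left) and 24 h (right) for the measured genes of the 10 lists, with members in red, other genes in blue, list medians as black bars and the 5th to 95th percentile of all measured genes in grey. HMOX1 in the haem degradation row and STEAP4 in the iron uptake row are the genes past 2-fold in both panels.

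The cells carried epithelial markers. Of 10 lung epithelial genes 9 were measured. Relative to the control array, 1 was higher and 7 lower at 12 h, where 50.2% of all measured genes were higher. At 24 h 3 were higher and 6 lower, where 48.8% of all measured genes were higher. The genes higher at 24 h include CDH1, at 0.005, and NAPSA, which was above the floor only at 24 h, at 74.9. EPCAM read 13754 at 12 h and 13538 at 24 h, against 13033 in the control, and KRT19 read 1171 and 1120, against 1703, or -0.54 and -0.60. Summed signals over the list were 71132 and 71789 on the treated arrays and 74428 in the control. NKX2-1, a marker of lung lineage, was below the floor on all 3 arrays, as were 6 of the 8 leukocyte and macrophage genes on the array, among them CD163, CD14 and PTPRC. The measured ones were CSF1R, at 186 at 12 h and 180 at 24 h, against 198 in the control, and ITGAM, above the floor only in the control at 73.7. Of 5 erythroid genes on the array 1 was measured, HBB, whose brightest probe set read 90.6 at 12 h and was below the floor on the other arrays, while another of its probe sets was above the floor only in the control. The sums of the leukocyte list were 346 at 12 h and 376 at 24 h, against 391 in the control, and those of the erythroid list were 144 and 72.5, against 89.3. The fibroblast list summed to 1453 and 1183, against 1684, and the endothelial list to 229 and 194, against 298. COL1A1 (689 and 495, against 730) and COL3A1 (650 and 585, against 877) made up most of the fibroblast sum. Probe sets of COL1A1 ranged from -0.08 to 0.87 at 12 h and from -0.56 to 0.50 at 24 h. In the endothelial list PECAM1 (98.3 and 89.3, against 137) and TEK (92.9 and 91, against 112) were above the floor on all arrays. Most genes in the leukocyte, erythroid, fibroblast and endothelial sums lay below the floor, and the part of other cell types in the differences was not tested. The ratio of 3′ to 5′ signal, which reflects RNA integrity, was for ACTB 5.38 at 12 h and 6.55 at 24 h, against 4.95 in the control, and for GAPDH 1.25 and 1.24, against 1.21. The part of RNA integrity in the differences was not tested. In RNA of whole cultures, a change in the number of cells of a kind and a change in RNA per cell cannot be told apart.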

How the data were processed

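The deposited table held linear signal intensity for 54675 probe sets on 3 arrays, which per the submitters' processing notes came from MAS5 (version and settings: not given in the sources used here). After trimming 2% from each end its mean was 500 on each array, and nothing further was scaled. Gene names came from the platform annotation, with 1 gene for 41097, several for 1801 and none for 11777. Of the single-gene probe sets 41043 matched a current RefSeq record by Entrez identifier.

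Signals were compared as log2 differences with a floor at the 50th percentile, 61.4, and a difference with 1 array at the floor is a bound. Genes were counted at 2-fold and 1.5-fold. Members, lists and rules were chosen with earlier results of these data known. Besides the members, the text names list genes past 2-fold, the 3 genes of a list that lay farthest from the control on average (above the floor on all arrays), and the 5 genes nearest to HMOX1; any other gene named was picked after its values were seen. Python 3.11.15, numpy 2.4.6, pandas 2.3.3 and limma 3.58.1 in R 4.3.3 were used. The code was tested on simulated data. Alternatives were median centring, quantile normalization, cyclic loess, floors at the 25th and 65th percentile, no floor with a pseudocount of 1, the median over probe sets, and transcript-specific probe sets. Motifs were sought on both strands in the 250 bases before RefSeq start sites.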

Additional observations from a re-analysis of the deposited data

Results flagged for a closer look

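BACH1 lay on opposite sides of the control at the 2 times, at -0.16 at 12 h and 0.0515 at 24 h on the log2 scale. Each value rests on 1 array against the same control, and the difference between them was not tested. As the median over its probe sets, the 24 h value was -0.06, on the same side as at 12 h. That median takes in the second probe set, a bound that was above the floor only in the control, at 68.9.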

How the results depend on the processing

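HMOX1 stayed past 2-fold under all 8 alternatives, from 1.66 to 1.70 at 12 h and from 1.27 to 1.28 at 24 h, and no other member reached 2-fold under any. HMOX2 stayed lower, from -0.58 to -0.28 at 12 h and from -0.41 to -0.07 at 24 h, and BLVRB higher, from 0.40 to 0.46 and from 0.79 to 0.83. HMOX1 and BLVRB each have 1 probe set, specific to the transcript by its suffix and far above every floor tried. For them the floor and probe set alternatives could therefore not move the values. Only median centring, quantile normalization and cyclic loess could do so by more than a trace. FECH at 12 h turned to -0.04 with transcript-specific probe sets, TFRC at 12 h ranged from -0.10 to 0.03 and SLC40A1 at 12 h from -0.01 to 0.02. SLC40A1 at 24 h reached -0.71 with the floor at the 25th percentile and -0.70 with none, and BLVRA for 24 h over 12 h reached 0.20 as the median over probe sets. SLC40A1 has no value with the floor at the 65th percentile, and BLVRA and FTL have none with transcript-specific probe sets. Counts of all genes 2-fold higher and lower, as 55 and 54 at 12 h, 73 and 79 at 24 h and 18 and 22 for 24 h over 12 h, moved with the floor. With the floor at the 25th percentile they were 718 and 813, 748 and 894, and 715 and 774. With it at the 65th percentile they were 26 and 18, 35 and 28, and 5 and 1. With no floor and a pseudocount of 1 they were 180 and 195, 203 and 223, and 129 and 138. No paired analysis was possible because each group has 1 array. No alternative moved the median of all genes by over 0.1.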
